A study of Mus musculus with 10 samples.

Results

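The genes described here are 37 targets and partners of the transcription factor ATF4: regulators of the integrated stress response, stress effectors, enzymes of serine, one-carbon and other amino acid synthesis, amino acid transporters, and the cytosolic enzymes that charge tRNA with amino acids. They were taken by gene symbol from a table of 29955 genes, and all 37 symbols had a row. Of them 36 passed the filter on low counts in the fit of 3 classes used for the main comparisons. Slc7a11 did not, with 80 counts over 10 libraries and at most 0.456 CPM (a gene's counts scaled to a common library size).

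RNA levels were measured by RNA sequencing in a mouse Philadelphia-chromosome-positive acute lymphoblastic leukaemia (Ph+ ALL) cell line that carries the p185 form of BCR-ABL1, an oncogenic tyrosine kinase. Every group carries that fusion and was grown in RPMI medium with serum. The untreated parental line gave 2 libraries (A and B). Lines were taken from it through rising doses of dasatinib, an inhibitor of the ABL and SRC kinases, or through the same steps in the vehicle DMSO, being replated at the next dose once they had grown out. The 1x step of the IC90 gave 3 dasatinib libraries (A, B and C) and 1 DMSO library, and the 16x step gave 3 and 1. The drug-free class holds the parental, DMSO 1x and DMSO 16x libraries, 4 in all. Only 1 parental line was used. The dasatinib libraries are titled biological replicates, yet nothing in the labels says that they came from separate cultures or selections, or whether the drug was still present at harvest. The p-values therefore measure only the spread between these samples, which may be technical within a group. In the drug-free class it also holds the differences between the parental and DMSO lines. Parental A and B differed less from each other (chi-square of 1.91 per degree of freedom) than dasatinib libraries of the same step (3.14 to 16.86). The single DMSO libraries are assumed to vary like the other groups.

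In the integrated stress response, kinases that sense amino acid shortage, misfolded protein, haem lack or double-stranded RNA phosphorylate the initiation factor eIF2. General translation then falls while the mRNA of Atf4 is translated more, so ATF4 activity can change with little change in its transcript. ATF4, often paired with a C/EBP protein, binds a composite element in many of its target genes, and these supply cells with amino acids, charged tRNA and one-carbon units. Lymphoid leukaemia cells are known for a weak capacity to make asparagine, which is the basis of asparaginase therapy.

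The composite C/EBP-ATF element was searched as the 8 letters TGATGNAA on both strands of the RefSeq promoter windows (GRCm38.p6), each running from 250 bases before a gene's start to 50 bases after it. It was the one motif searched, so no overlap with another was counted. It was present in the windows of 11 of the 30 members that have one (36.67%), and in 1219 of 27025 genes (4.51%). The 11 were Trib3, Nupr1, Chac1, Vldlr, Asns, Pycr1, Slc7a11, Aars, Gars, Tars and Yars. No match lay in the windows of the 5 serine and one-carbon genes, which says only that these letters are not in those windows. Since the lines below show where the letters stand in members whose RNA values are given later, 8 stretches are printed from 5′ to 3′ on the gene's own strand. Capitals mark the match, which reads TGATGNAA on the gene's strand in Asns and Pycr1 and is its reverse complement in the other 6.
Nupr1 (chr7:126625557-126625596, minus strand): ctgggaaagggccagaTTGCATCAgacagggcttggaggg
Chac1 (chr2:119351033-119351072, plus strand): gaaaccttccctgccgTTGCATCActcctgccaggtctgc
Vldlr (chr19:27216804-27216843, plus strand): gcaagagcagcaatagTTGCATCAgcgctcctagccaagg
Asns (chr6:7693210-7693248, minus strand): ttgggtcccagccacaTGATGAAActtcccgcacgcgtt
Pycr1 (chr11:120643828-120643867, minus strand): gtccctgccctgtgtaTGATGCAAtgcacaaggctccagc
Aars (chr8:111033714-111033753, plus strand): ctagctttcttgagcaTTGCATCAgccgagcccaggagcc
Gars (chr6:55037955-55037994, plus strand): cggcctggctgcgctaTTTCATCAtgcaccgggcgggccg
Tars (chr15:11399659-11399689, minus strand): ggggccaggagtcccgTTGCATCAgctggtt

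The 10 libraries held 29049760 to 45813092 counts. Pre-B markers were present and several moved with the groups. Pax5, a B-lineage transcription factor, read 144 to 153 CPM in drug-free libraries, 124 to 138 at dasatinib 1x and 105 to 127 at 16x. At 16x against drug-free libraries Pax5 had a log2 change of -0.39 ± 0.07, and Cd79a and Cd79b, the signalling chains of the B cell receptor, -0.20 ± 0.06 and -0.34 ± 0.08 (adjusted p = 0.00500, 0.0483 and 0.0192), while Vpreb1, Igll1 and Blnk did not pass. Against DMSO 16x, Pax5, Cd79a, Cd79b, Vpreb1 and Igll1 were lower, with log2 changes of -0.52 to -0.18, and Blnk was higher by 0.49. Their part in the results on the members was not tested. Ebf1, a defining B-lineage factor, was at or below 0.717 CPM in every library. The 6 T cell and 4 stromal markers summed to at most 0.0681 CPM, and the 5 myeloid markers to 3.63 to 8.22 CPM. Of the erythroid markers Hba-a1 had no row, and Hbb-b1, a globin chain, stood at 4.39 and 4.04 CPM in parental cells, 3.50 to 4.25 at dasatinib 1x, 34.4 in DMSO 16x and 16.1 to 26.4 at dasatinib 16x. The labels name no batch.

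Against the drug-free libraries, 2 members rose at the first dasatinib step and 15 at the higher one, mostly by less than 1 on the log2 scale, and 2 fell. In the robust quasi-likelihood test of edgeR with Benjamini-Hochberg adjustment over 12282 genes, 2 of the 36 tested members rose at dasatinib 1x, where 0.822% of all genes tested rose. None fell by this test, where 1.14% of all genes fell. At an unadjusted p under 0.05 there were 13 members higher and 1 lower, beside 2432 of the 12282 genes in either direction. DESeq2 called 10 members higher and 1 lower while limma-voom called 2 and 0. The shares of all genes called by those 2 tools are not given here. At dasatinib 16x, 15 of 36 rose and 2 fell, beside 7.79% and 8.33% of all genes. The median log2 change of the 36 members was 0.09 at 1x and 0.21 at 16x, against -0.0060 and -0.0037 for all genes tested. These comparisons share the drug-free libraries. In bulk RNA a change in RNA per cell and a change in the share of cells that make it cannot be told apart.

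**Figure D1:**
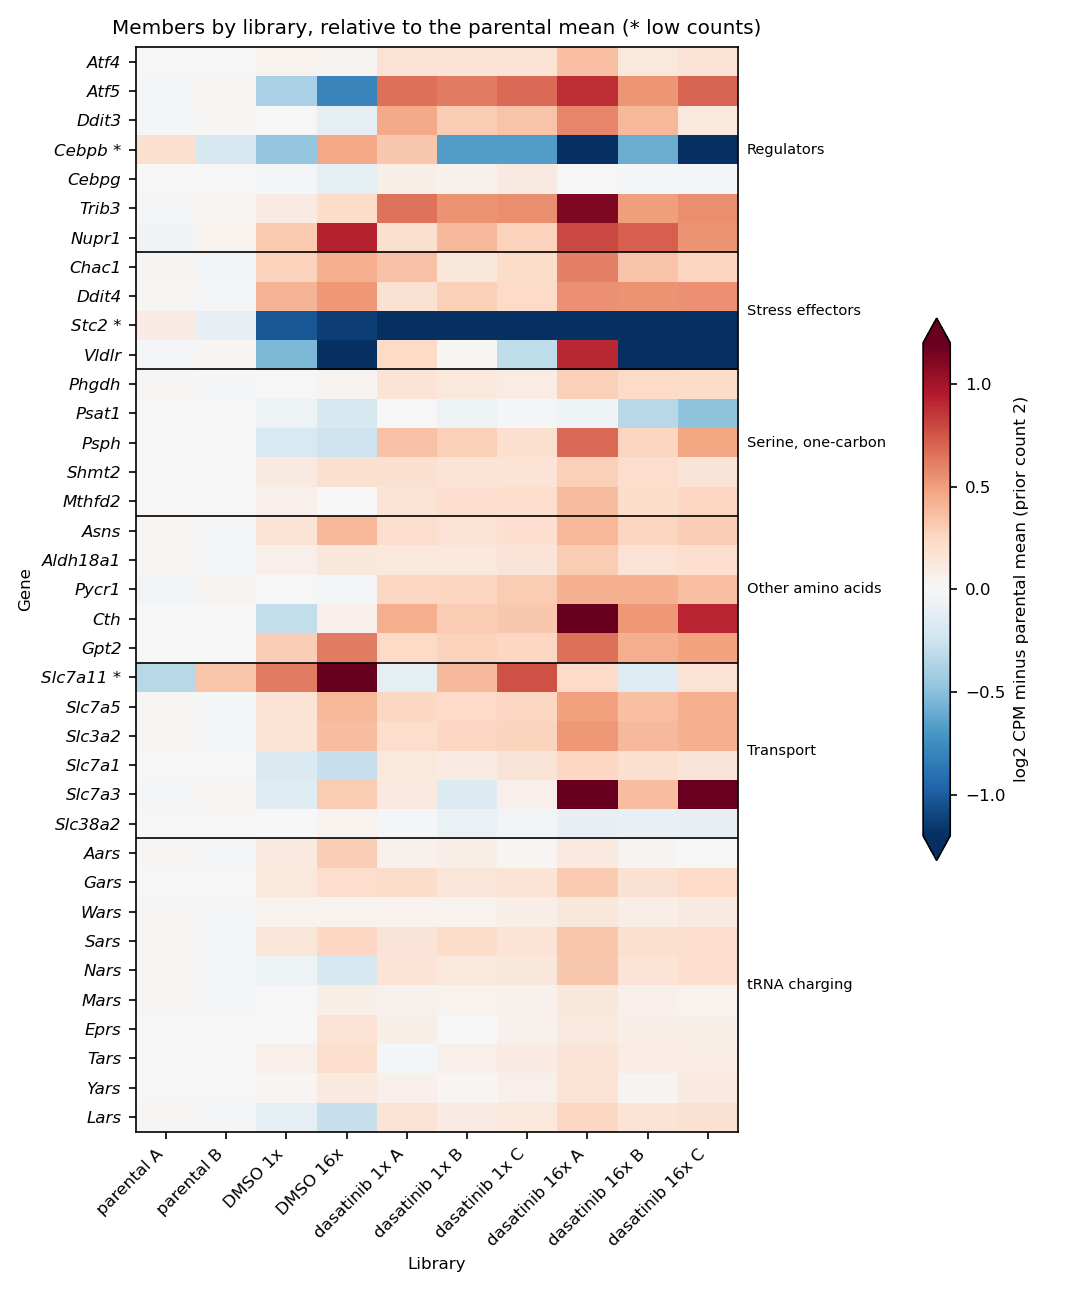
Level of the 37 members (rows, grouped by role) in each of the 10 libraries (columns), as log2 CPM with a prior count of 2 minus the mean of the parental libraries; the colour scale is capped at both ends, and asterisks mark 3 genes with low counts. Most rows are redder under dasatinib 16x, and dasatinib 16x A is the reddest column. The DMSO 16x column is red for Slc7a11 (low counts), Nupr1, Gpt2 and Ddit4 and blue for Vldlr, Stc2 (low counts) and Atf5.

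Among the regulators, 4 of 7 rose at dasatinib 16x: Atf5, Trib3, Ddit3 and Atf4. Atf4 itself, the transcription factor at the centre of the response, stood at 569 and 573 CPM in the parental libraries, 587 in DMSO 1x and 584 in DMSO 16x. In replicate order, A first, it read 645, 642 and 638 at dasatinib 1x, and 734, 624 and 640 at 16x. All 6 dasatinib libraries lay above all 4 drug-free ones, with 16x A the highest. The log2 change was 0.15 ± 0.05 (SE) at 1x (adjusted p = 0.166) and 0.20 ± 0.05 at 16x (adjusted p = 0.0255). Without dasatinib 16x A the 16x change was 0.13. The call ended without parental A, parental B or DMSO 1x, and when only the compared libraries were fitted (adjusted p up to 0.0778 over all alternatives).

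Atf5 encodes a related factor whose mRNA is also under translational control by eIF2. Its levels in the same order were 73.1 and 75.7 CPM (parental), 56.8 (DMSO 1x), 43.0 (DMSO 16x), 117, 115 and 119 (dasatinib 1x) and 137, 107 and 121 (dasatinib 16x). The 6 dasatinib libraries stood above all drug-free ones, and both DMSO lines stood below parental. Atf5 rose by 0.91 ± 0.17 on the log2 scale at 1x (adjusted p = 0.037) and by 0.97 ± 0.17 at 16x (adjusted p = 0.00699). The 1x call ended when any of the 3 dasatinib 1x libraries or the DMSO 1x library was left out, and without dasatinib 16x C, with adjusted p up to 0.146 over all alternatives. That call also ended without the filter on low counts and when only the compared libraries were fitted. The 16x call held under all 20 alternatives, with log2 changes of 0.70 to 1.30.

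Trib3, a pseudokinase that ATF4 and CHOP induce and that dampens their activity, read 48.4 and 50.1 CPM in parental cells, 52.7 in DMSO 1x, 57.3 in DMSO 16x, 77.5, 71.5 and 72.6 at dasatinib 1x and 107, 69.5 and 72.3 at dasatinib 16x. All 6 dasatinib libraries lay above the 4 drug-free ones. At 16x, A stood apart, C lay within the range of the 1x libraries and B just below it. The log2 change at 16x was 0.67 ± 0.14 (adjusted p = 0.0123), and 0.45 without 16x A. With the parental or the DMSO libraries alone as reference, or with the replicate letter as a block, it was not called, with adjusted p up to 0.0753 over all alternatives. Ddit3, which encodes the pro-death factor CHOP, read 14.4 and 14.8 CPM in parental cells, 14.6 and 13.5 in DMSO 1x and 16x, 20.1, 18.005 and 18.5 at dasatinib 1x and 21.9, 19.3 and 15.9 at 16x. The highest drug-free library was below the lowest dasatinib one. Its log2 change at 16x was 0.41 ± 0.10 (adjusted p = 0.0215). The call ended without dasatinib 16x A, without 16x B and when only the compared libraries were fitted (adjusted p up to 0.0714 over all alternatives).

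The other 3 regulators did not pass the test in either comparison with drug-free libraries. Cebpg, a C/EBP partner of ATF4, changed by 0.11 ± 0.04 at 1x and 0.02 ± 0.04 at 16x on the log2 scale. Cebpb, another partner, had 1 to 25 counts a library, and its 16x change was -1.84 ± 0.63 (adjusted p = 0.0755). Nupr1, a small stress-induced chromatin protein, changed by 0.32 ± 0.21 at 16x (adjusted p = 0.327), with DMSO 16x the highest of all libraries.

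**Figure D2:**
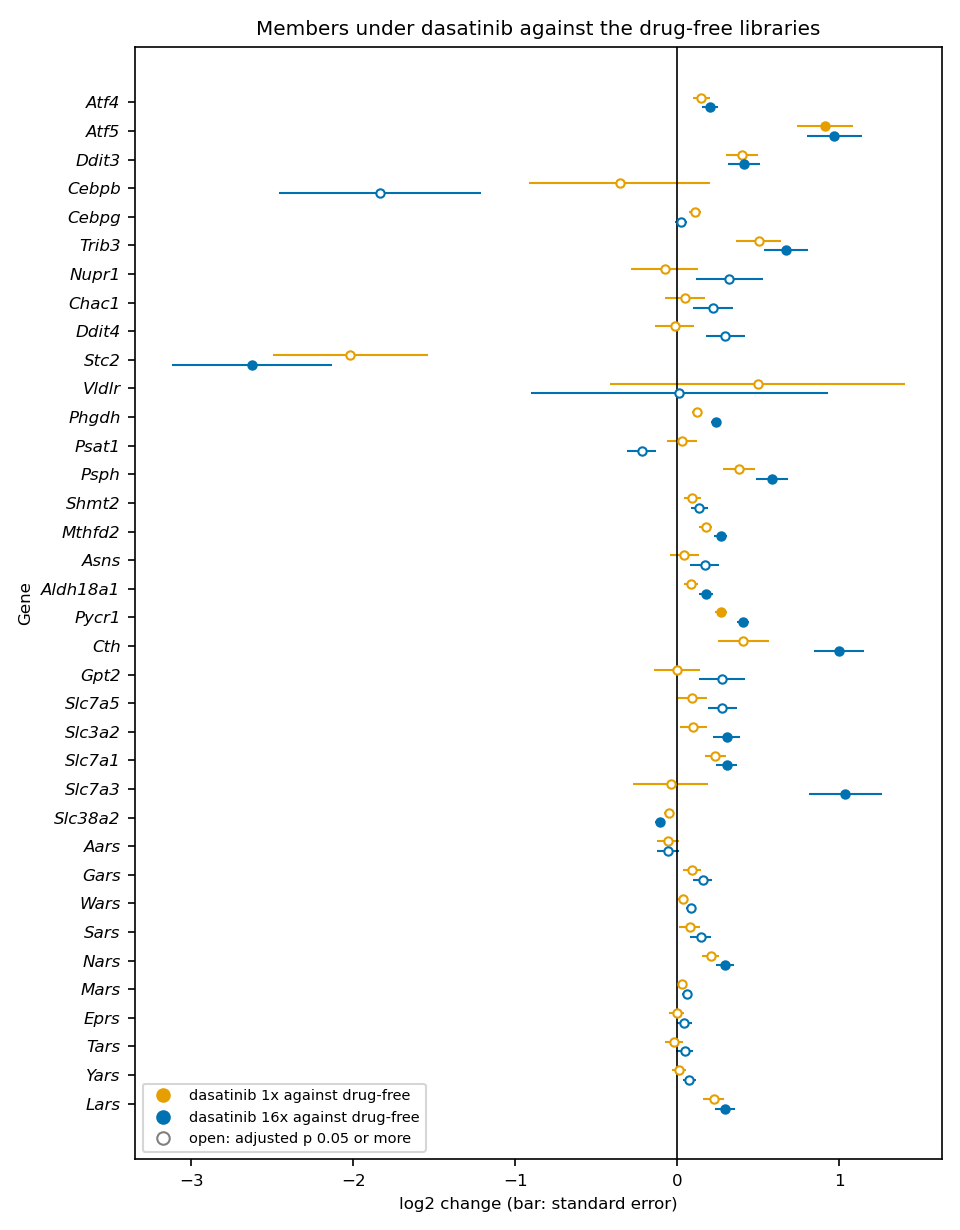
Log2 change of the 36 tested members (rows) at dasatinib 1x (orange, n = 3) and 16x (blue, n = 3) against the 4 drug-free libraries, with the standard error as a bar; filled points passed an adjusted p of 0.05 in edgeR. At 16x the filled points lie between 0.18 and 1.04 for the 15 members that rose, with Stc2 at -2.63 and Slc38a2 at -0.11.

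Of the 4 stress effectors, Stc2 fell at 16x and the other 3 did not pass. Stc2, a secreted glycoprotein of the stress response, had low counts: 2.08 and 1.82 CPM in parental cells, 0.930 in DMSO 1x, 0.857 in DMSO 16x, 0.253, 0.604 and 0.176 at dasatinib 1x and 0.198, 0.269 and 0.215 at 16x. It was lowest in the dasatinib libraries and intermediate in the DMSO lines. The log2 change at 16x was -2.63 ± 0.50 (adjusted p = 0.00823), on 9 to 11 counts in each 16x library. The call held under all 20 alternatives. Vldlr, a lipoprotein receptor, stood at 27.9 CPM in dasatinib 16x A but at 2.06 and 1.91 in B and C. In the parental libraries it read 14.6 and 15.04 CPM, and in DMSO 16x 2.28, so the 16x libraries fell on both sides of the drug-free range. Ddit4 and Chac1 changed by 0.30 ± 0.12 and 0.22 ± 0.12 at 16x (adjusted p = 0.128 and 0.262).

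In serine and one-carbon synthesis, 3 of 5 genes rose at 16x: Psph, Mthfd2 and Phgdh. Phgdh catalyses the entry step from glycolysis to serine, and its levels were 645 and 635 CPM (parental), 636 (DMSO 1x), 656 (DMSO 16x), 716, 699 and 680 (dasatinib 1x) and 780, 748 and 747 (dasatinib 16x). Each step lay wholly above the one before, from drug-free through 1x to 16x. The log2 change at 16x was 0.24 ± 0.03 (adjusted p = 0.00159) and at 1x 0.12 ± 0.03 (adjusted p = 0.0898). Psph, the phosphatase of the last serine step, read 129 and 128 CPM in parental cells, 114 and 108 in DMSO 1x and 16x, 164, 157 and 147 at dasatinib 1x and 206, 154 and 178 at 16x. Both dasatinib groups were above the drug-free range, but overlapped each other. Psph rose by 0.58 ± 0.10 at 16x (adjusted p = 0.00518). Mthfd2, the mitochondrial enzyme that oxidises one-carbon folate, read 368 and 365 CPM in parental cells, 382 in DMSO 1x, 369 in DMSO 16x, 410, 421 and 425 at dasatinib 1x and 477, 428 and 436 at 16x. As for Phgdh, the 3 ranges followed each other without overlap. The 16x change was 0.27 ± 0.04 (adjusted p = 0.00303).

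Psat1 and Shmt2 did not pass the test. Psat1, the aminotransferase between Phgdh and Psph, had 443 and 441 CPM in the parental libraries, 423 in DMSO 1x and 387 in DMSO 16x. It read 424 to 439 at dasatinib 1x, and 425, 350 and 315 in dasatinib 16x A, B and C. Its 16x change against drug-free libraries was -0.22 ± 0.09 (adjusted p = 0.132), and -0.34 with a call when 16x A was left out (adjusted p = 0.0153). Against DMSO 16x alone the log2 change of Psat1 was -0.09 ± 0.15, and -0.22 without 16x A. Shmt2, which passes the serine carbon to folate in mitochondria, changed by 0.14 ± 0.05 at 16x (adjusted p = 0.108). The 16x calls of Phgdh, Psph and Mthfd2 held under all alternatives run for them.

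Of the 5 other synthesis genes, Cth, Pycr1 and Aldh18a1 rose at 16x. Cth, which makes cysteine from cystathionine, read 117 and 116 CPM in parental cells, 95.2 in DMSO 1x, 121 in DMSO 16x, 158, 144 and 146 at dasatinib 1x and 287, 167 and 221 at 16x. The 16x libraries lay above the 1x libraries, which lay above the drug-free ones, and the spread between the 16x libraries was wide. The change at 16x was 1.00 ± 0.16 (adjusted p = 0.00404), and 0.79 without 16x A. The 16x call ended with the replicate letter as a block (adjusted p = 0.0733) and held under the other alternatives. At 1x it was 0.41 ± 0.16 (adjusted p = 0.207). Pycr1, the last enzyme of proline synthesis, was even within each group at 38.6 and 40.6 CPM in parental cells, 39.8 and 39.1 in DMSO 1x and 16x, 47.0, 47.3 and 48.8 at dasatinib 1x and 53.2, 53.4 and 50.7 at 16x. The DMSO lines stayed within the parental range and the ranges of the 2 dasatinib steps did not overlap. Pycr1 rose by 0.27 ± 0.04 at 1x (adjusted p = 0.0106) and 0.41 ± 0.04 at 16x (adjusted p = 0.000287). The 1x call ended without any 1 of the 3 dasatinib 1x libraries, with adjusted p up to 0.0657, and the 16x call held under all alternatives.

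Aldh18a1, the first enzyme of proline synthesis, read 337 and 330 CPM in parental cells, 349 in DMSO 1x, 366 in DMSO 16x, 365, 364 and 373 at dasatinib 1x and 412, 377 and 383 at 16x. DMSO 16x lay among the 1x dasatinib libraries. Its 16x change was 0.18 ± 0.04 (adjusted p = 0.0249), and the call ended without parental A, parental B, DMSO 1x, dasatinib 16x A or 16x C, with adjusted p up to 0.0976. That call also ended when only the compared libraries were fitted. Asns, asparagine synthetase, read 380 and 368 CPM in parental cells, 418 in DMSO 1x, 493 in DMSO 16x, 432, 421 and 429 at dasatinib 1x and 495, 447 and 459 at 16x. DMSO 16x lay just under the highest dasatinib library. Asns changed by 0.17 ± 0.09 at 16x (adjusted p = 0.23). Gpt2, the mitochondrial alanine aminotransferase, changed by 0.28 ± 0.14 (adjusted p = 0.211).

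**Figure D3:**
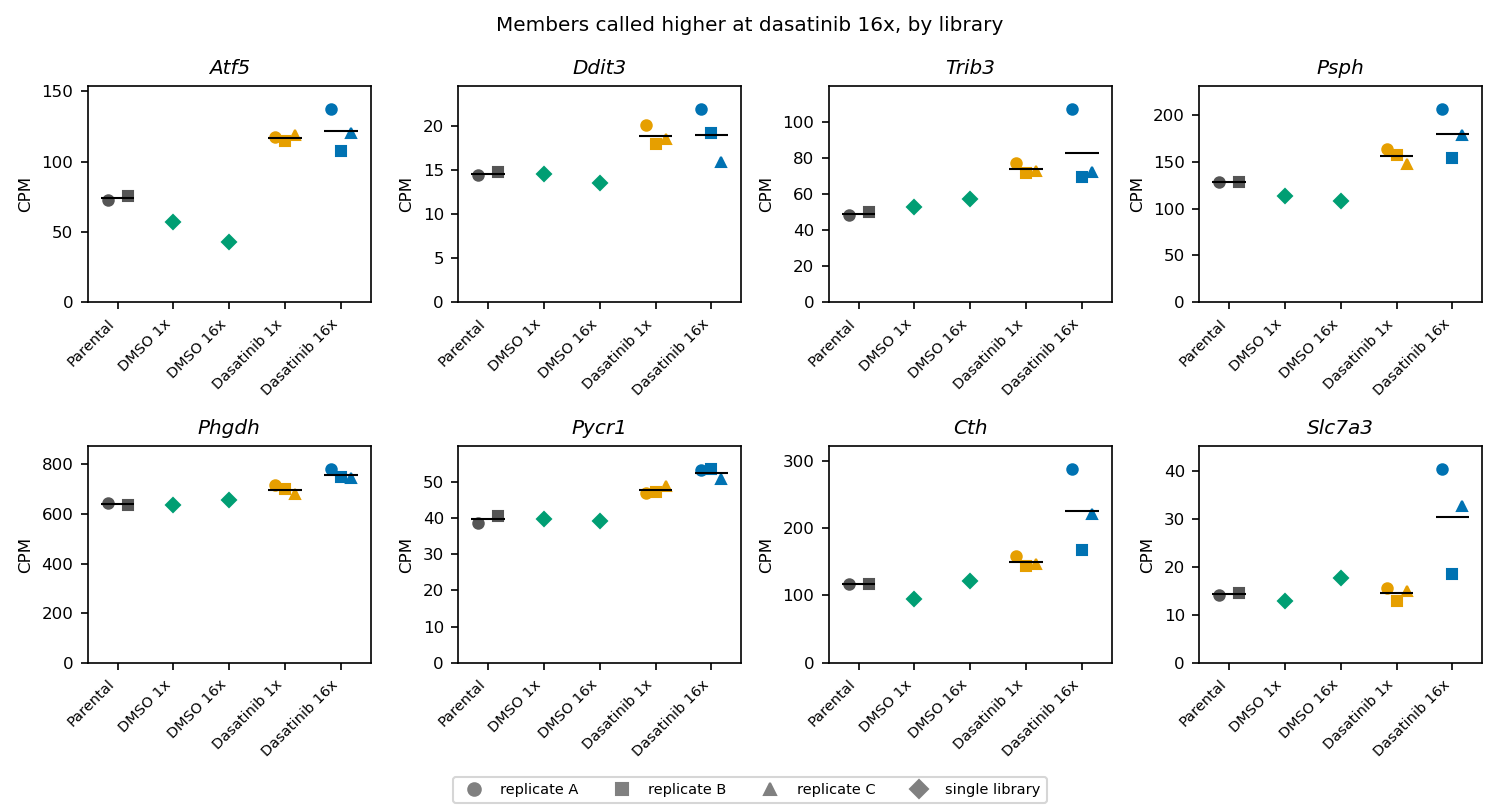
CPM of 8 members that rose at dasatinib 16x against drug-free libraries, 1 point a library, with the group mean as a line where a group has more than 1 library; the vertical axes start at 0. Dasatinib 16x A (blue circle) is the highest 16x library in each panel but Pycr1, where it reads 53.2 CPM beside 53.4 in B.

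Of 6 transporters, 5 were tested, 3 rose at 16x and 1 fell. Slc7a3, a cationic amino acid carrier, read 14.1 and 14.6 CPM in parental cells, 13.0 in DMSO 1x, 17.8 in DMSO 16x, 15.6, 12.8 and 15.02 at dasatinib 1x and 40.4, 18.5 and 32.7 at 16x. Dasatinib 1x A and C lay in the drug-free range and 1x B just below it, and 16x B lay close above DMSO 16x. The 16x change was 1.04 ± 0.23 (adjusted p = 0.0156), and it was lost without 16x A, without 16x C and under 4 other alternatives (adjusted p up to 0.115). Slc3a2, the heavy chain that pairs with several light-chain exchangers, read 324 and 314 CPM in parental cells, 357 in DMSO 1x, 412 in DMSO 16x, 368, 378 and 385 at dasatinib 1x and 459, 416 and 430 at 16x. DMSO 16x lay just under the lowest 16x library. Its change was 0.31 ± 0.08 (adjusted p = 0.0369), and the call ended without any 1 of the parental, DMSO 1x or dasatinib libraries (adjusted p up to 0.13). That call also ended when only the compared libraries were fitted.

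Slc7a1, the main arginine and lysine carrier, read 653 and 651 CPM in parental cells, 578 and 538 in DMSO 1x and 16x, 713, 698 and 724 at dasatinib 1x and 772, 744 and 728 at 16x. It was below parental in the DMSO lines and above parental in all dasatinib libraries. The 16x change was 0.31 ± 0.06 (adjusted p = 0.0133), with the call lost without 16x A (adjusted p = 0.0515). Slc7a5, the light chain of the leucine exchanger, changed by 0.28 ± 0.09 (adjusted p = 0.0601). Slc38a2, a glutamine and alanine carrier, fell by 0.11 ± 0.03 (adjusted p = 0.0276), from 654 to 673 CPM in drug-free libraries to 610 to 615 at 16x. The call ended without parental A, DMSO 1x, dasatinib 1x C or any 1 of the 16x libraries (adjusted p up to 0.105). It also ended without the filter on low counts, with the replicate letter as a block and when only the compared libraries were fitted. Slc7a11, the cystine exchanger, had 3 to 17 counts a library, with 0.456 CPM in DMSO 16x and 0.102 to 0.277 in the other 9.

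Of 10 cytosolic tRNA synthetase genes, the asparagine and leucine enzymes Nars and Lars rose at 16x. Nars read 683 and 673 CPM in parental cells, 650 and 594 in DMSO 1x and 16x, 760, 742 and 746 at dasatinib 1x and 851, 761 and 781 at 16x. Lars read 406 and 397 CPM in parental cells, 369 and 330 in the DMSO lines, 448, 430 and 438 at 1x and 475, 450 and 455 at 16x. Both genes were lowest in DMSO 16x and above parental in each dasatinib library. Nars rose by 0.30 ± 0.05 (adjusted p = 0.00721) and Lars by 0.29 ± 0.06 (adjusted p = 0.0144), the latter lost without 16x A (adjusted p = 0.0546). The other 8 changed by -0.06 to 0.16 at 16x and did not pass the test.

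Psph and Slc7a1 lie on chromosome 5, and Nars and Lars on chromosome 18, whose genes as a whole were lower in the DMSO lines. Against parental, tested genes had a median log2 change of -0.47 on chromosome 5 and -0.52 on chromosome 18 in DMSO 16x. In DMSO 1x the medians were -0.17 and -0.18, while genes elsewhere stood at 0.02 in both. At dasatinib 16x against drug-free libraries, the medians were 0.22 on chromosome 5, 0.14 on chromosome 18 and -0.02 elsewhere. Beside these medians stand the changes of 0.58 for Psph, 0.31 for Slc7a1, 0.30 for Nars and 0.29 for Lars. With the parental libraries alone as reference, the 16x changes were 0.48 for Psph, 0.20 for Slc7a1, 0.23 for Nars and 0.20 for Lars, each with an adjusted p under 0.05 in the fit of 5 groups. With these 4 genes set aside, 13 of 32 members passed at 16x, 11 higher and 2 lower.

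The library dasatinib 16x A had the highest level of all 10 libraries in 25 of the 36 tested members (69.4%), and in 13.2% of all genes tested. DMSO 16x was the highest in 6 members (16.7%) and in 24% of all genes. Without dasatinib 16x A, 11 members passed at 16x against drug-free, 9 higher and 2 lower, of which 10 were among the 17 of the full fit. The share of all genes called without that library is not given here.

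From dasatinib 1x to 16x, no member passed the test with the spread of all 10 libraries in 3 classes. The background was 1.21% of genes higher and 0.928% lower. Before adjustment, p lay below 0.05 for 8 of 36 members, 6 of them higher, and for 1942 of 12282 genes in either direction. The smallest adjusted p of a member was 0.0631, for Slc7a3 (log2 change 1.08 ± 0.25). DESeq2 called 3 members higher (Slc7a3, Cth and Phgdh) and limma-voom called 0. In the fit of 5 groups, which keeps the DMSO and parental lines apart and has a biological coefficient of variation of 7.29% against 15.3%, 7 members rose from 1x to 16x: Nupr1 by 0.40, Ddit4 by 0.31, Gpt2 by 0.28, Slc3a2 by 0.21, Slc7a5 by 0.18, Asns by 0.13 and Phgdh by 0.12. Of these, Nupr1, Ddit4, Gpt2, Asns, Slc7a5 and Slc3a2 also rose from parental to DMSO 16x. That fit was added after the data were seen. The shares of all genes called from 1x to 16x in that fit and by DESeq2 are not given here, so these member counts have no background beside them.

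Cells carried in DMSO to the 16x step differed from parental cells in 17 of the 37 members, 13 higher and 4 lower, in the fit of 5 groups, which tested 12993 genes. Of all those genes 14.6% were higher and 15.5% lower. Nupr1 rose by 0.93 ± 0.12 on the log2 scale (adjusted p = 5.7e-05), from 12.7 and 13.5 CPM to 24.9. Gpt2 rose by 0.63 ± 0.07 (adjusted p = 4.6e-05), and Ddit4, an inhibitor of mTORC1 signalling, by 0.52 ± 0.05 (adjusted p = 9.2e-06). Chac1, which degrades glutathione, rose by 0.44 ± 0.13 (adjusted p = 0.0281), and this call ended without either parental library. Asns and Slc7a5 both rose by 0.40, with SE of 0.06 and 0.05. Slc3a2 rose by 0.37 ± 0.05 and Aars, the alanine tRNA synthetase, by 0.30 ± 0.05. The remaining 5 that rose, Sars, Gars, Tars, Shmt2 and Eprs, did so by 0.17 to 0.25. Without either parental library the call of Shmt2 ended too, and without parental B that of Gars.

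The 4 members that fell in DMSO 16x had log2 changes of -0.79 ± 0.13 for Atf5 (adjusted p = 0.00293), -0.28 for Lars, -0.28 for Slc7a1 and -0.19 for Nars, the call of Nars ending without either parental library. The last 3 fell by less than the median gene of their chromosomes. Atf4 was 0.03 ± 0.08 from parental (adjusted p = 0.81), Ddit3 -0.11 ± 0.16 and Phgdh 0.03 ± 0.05. In DMSO 1x, 2 members rose and 1 fell against parental, beside 3.29% and 2.77% of all genes. Ddit4 rose by 0.40 ± 0.05 (adjusted p = 0.000981), Gpt2 rose by 0.29 ± 0.07 (adjusted p = 0.0425) and Slc7a1 fell by 0.17 ± 0.05 (adjusted p = 0.0445). Tested genes of chromosome 5, where Slc7a1 lies, had a median of -0.17 in DMSO 1x. The calls of Gpt2 and Slc7a1 ended without either parental library and without dasatinib 1x A or C. That of Gpt2 also ended without dasatinib 1x B and with limma-voom. Since each DMSO line is 1 library, the line and the time in culture cannot be told apart.

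**Figure D4:**
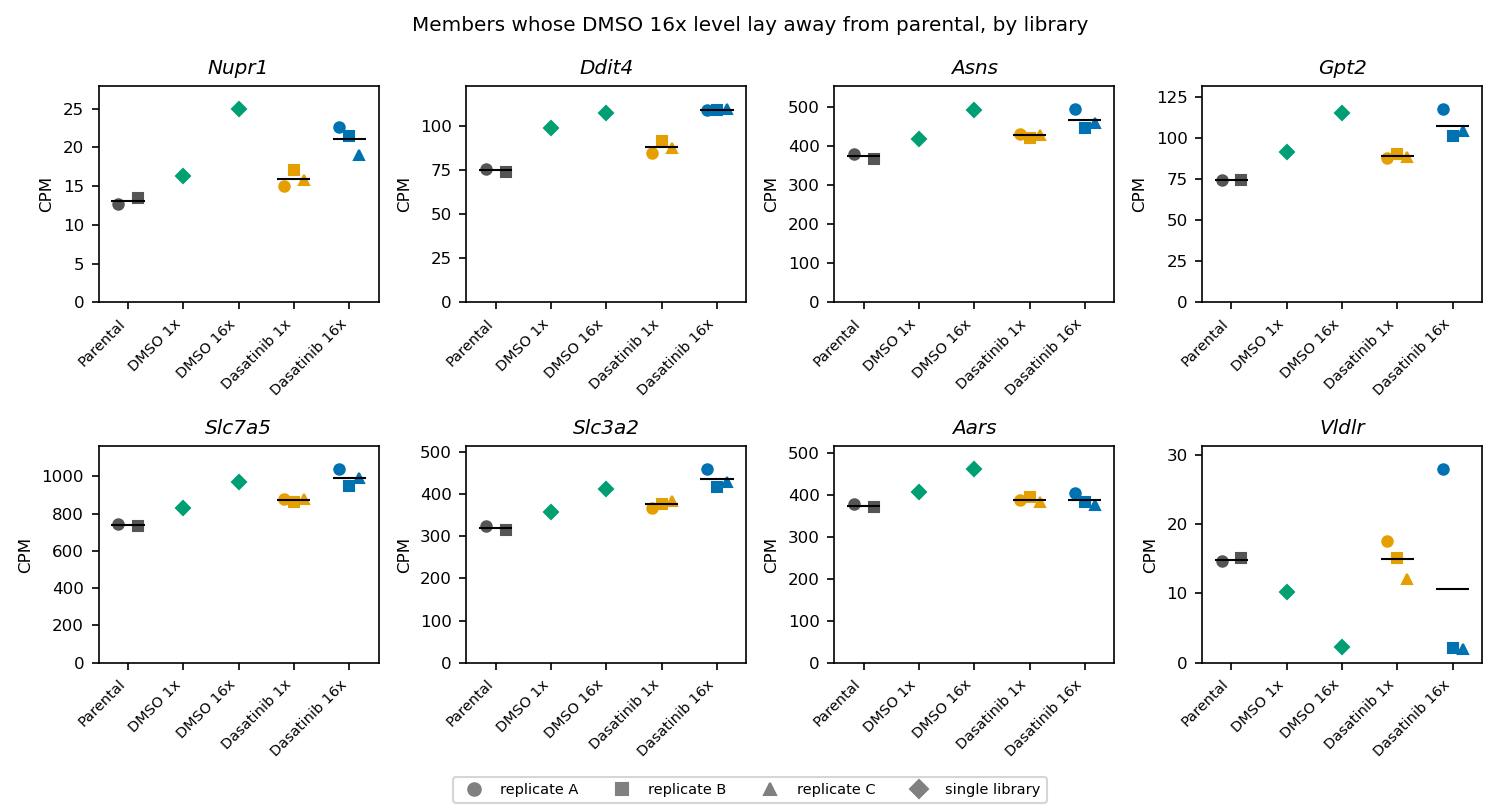
CPM of 8 members in the 10 libraries, drawn as in the plot of drug-raised members, for genes whose DMSO 16x level lay away from parental. In Nupr1, Ddit4, Asns, Gpt2, Slc7a5 and Slc3a2 the DMSO 16x library lies well above parental and near the dasatinib 16x libraries; Aars is highest in DMSO 16x, and Vldlr is near 2 CPM in DMSO 16x and in dasatinib 16x B and C.

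Set against the DMSO line of the same step, 5 members rose and 1 fell at dasatinib 1x, beside 6.65% and 6.99% of all genes. Those that rose were Atf5 by 1.04 ± 0.12 (adjusted p = 0.00161), Slc7a1 by 0.30 ± 0.04 (adjusted p = 0.000769), Pycr1 by 0.26 ± 0.06 (adjusted p = 0.014), Lars by 0.25 ± 0.04 (adjusted p = 0.0026) and Nars by 0.21 ± 0.06 (adjusted p = 0.0253). Ddit4 fell by 0.17 ± 0.05 (adjusted p = 0.0364), and stood at 99.2 CPM in DMSO 1x and at 85.1 to 91.5 in the dasatinib 1x libraries. The calls of Nars and Ddit4 ended without parental A, parental B, dasatinib 1x A or dasatinib 1x C, and that of Ddit4 also with DESeq2. Without dasatinib 16x A, whose spread enters the fit, 13 members were called, and the share of all genes called then is not given here. Against DMSO 1x, tested genes had a median log2 change of 0.25 on chromosome 5 and 0.18 on chromosome 18, and -0.02 elsewhere. Slc7a1, Lars and Nars lay not far above the medians of their chromosomes. With the genes of chromosomes 5 and 18 set aside, 3 of 33 members passed: Atf5, Pycr1 and Ddit4. The median of all members was 0.08.

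At the 16x step, 9 members rose and 4 fell against DMSO 16x, beside 17.9% and 16.9% of all genes. Atf5 rose by 1.504 ± 0.13 (adjusted p = 6.3e-05), Psph by 0.73 ± 0.16 (adjusted p = 0.0144) and Ddit3 by 0.49 ± 0.15 (adjusted p = 0.0227). Lars and Slc7a1 both rose by 0.48, Nars and Pycr1 by 0.43 and 0.42, Mthfd2 by 0.28 and Phgdh by 0.21. The 4 that fell had log2 changes of -0.24 ± 0.05 for Aars (adjusted p = 0.00117), -0.13 ± 0.04 for Slc38a2 (adjusted p = 0.0172), -1.90 ± 0.53 for Stc2 (adjusted p = 0.0145) and -2.30 ± 0.77 for Cebpb (adjusted p = 0.0359). The call of Cebpb ended under 6 of 14 alternatives, 5 of which left out 1 of parental A and B, dasatinib 1x C and dasatinib 16x A and C. The chromosome 5 and 18 genes as a whole stood 0.54 and 0.51 higher than in DMSO 16x, so Lars, Slc7a1 and Nars lay below the median of their chromosomes and Psph above it. The median over the 37 members was 0.03, against 0.0028 for all genes.

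Of the 13 members that rose in DMSO 16x, all but Aars, 12 in all, read above both parental libraries in every dasatinib 16x library. The same count was not made for all genes that rose in DMSO 16x, so it is not read as particular to the members. None of the 12 passed the test of dasatinib 16x against DMSO 16x, while Aars was lower there. These genes were picked for a high level in that same DMSO 16x library, which by itself lowers their difference from it. The lack of calls therefore does not show that the drug and DMSO lines were alike. The log2 difference from DMSO 16x was -0.24 ± 0.11 for Nupr1, 0.03 ± 0.05 for Ddit4, -0.08 ± 0.05 for Asns, -0.09 ± 0.07 for Gpt2, 0.03 ± 0.05 for Slc7a5 and 0.08 ± 0.05 for Slc3a2, and between -0.09 and 0.03 for Chac1, Shmt2, Gars, Sars, Tars and Eprs. Without dasatinib 16x A, Nupr1, Asns and Gpt2 were called lower than in DMSO 16x, at -0.30, -0.12 and -0.17. Trib3 and Cth stood 0.54 ± 0.26 and 0.89 ± 0.30 above DMSO 16x with adjusted p of 0.186 and 0.0755; without 16x A, where the spread was smaller, they were called at 0.31 and 0.67.

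Whether the difference from the matched DMSO line itself changed between the 1x and 16x steps was tested as an interaction, and no member passed. Of all genes 5.06% had a higher and 1.29% a lower difference at 16x. Before adjustment, p lay below 0.05 for 8 of 37 members, 5 of them higher. The same held for 2369 of 12993 genes in either direction. The smallest adjusted p of a member was 0.0505, for Lars. DESeq2 called 2 members and limma-voom 0, and the shares of all genes called by them are not given here. Atf5 had an interaction of 0.46 ± 0.17 (adjusted p = 0.199), and was called at 0.36 without dasatinib 16x A.

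The counts of promoter matches among called members are given as a description, without a test. Of the 12 members with a window that rose in DMSO 16x against parental, 6 held the TGATGNAA match: Nupr1, Chac1, Asns, Aars, Gars and Tars, whose sequences stand above. Among the 16 with a window that were not called in DMSO 16x, 5 did, as did 0 of the 2 that fell. Of the 11 with a window that rose at dasatinib 16x against drug-free libraries, 2 did, Pycr1 and Trib3. Of the 16 with a window that were not called there, 8 did. These 2 comparisons share libraries.

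Other genes of the stress response and of amino acid metabolism were read from lists. For each list, the background at dasatinib 16x against drug-free was 7.79% of all genes higher and 8.33% lower. The calls in these lists were not followed through the alternatives. Of 14 genes for eIF2 kinases and response factors, 12 were tested, 4 rose and 2 fell at dasatinib 16x against drug-free, with a median of 0.12. Jdp2, an AP-1 family repressor, rose by 0.45 ± 0.08 at 1x and 1.02 ± 0.08 at 16x (adjusted p = 0.0345 and 0.000225), and by 0.57 ± 0.09 from 1x to 16x (adjusted p = 0.0165). It read 27.9 to 35.2 CPM in drug-free libraries, 40.2 to 46.7 at 1x and 61.6 to 65.0 at 16x, with no overlap. Atf3, a stress-induced factor next to ATF4, rose by 0.76 ± 0.17 at 16x (adjusted p = 0.017), and Sesn2, which restrains mTORC1, by 0.49 ± 0.10 (adjusted p = 0.00919). Ppp1r15a rose too, while the kinase genes Eif2ak3 and Eif2ak4 fell, with log2 changes of -0.30 ± 0.05 and -0.24 ± 0.05. In the unfolded protein list, 2 of 14 rose at 16x, Creld2 by 0.20 and Manf by 0.19, the other 12 did not pass, and the median was 0.08.

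Mthfd2l, the close relative of Mthfd2 in one-carbon metabolism, had 392 counts over the drug-free libraries, 68 at dasatinib 1x and 0 at 16x. Its pooled level in the drug-free libraries, 2.70 CPM, was 115.5-fold a floor of 3 counts over the 16x group (0.0234 CPM). Only the 16x side of this ratio allows for counting error. The drug-free libraries differed, with 3.34 and 3.32 CPM in parental cells, 2.49 in DMSO 1x and 1.71 in DMSO 16x. Against DMSO 16x alone the ratio is therefore smaller. The gene lies on chromosome 5. Of 17 other amino acid metabolism genes 16 were tested, with 4 higher and 1 lower at 16x and a median of 0.04. Glul, glutamine synthetase, fell by 0.76 ± 0.08 (adjusted p = 0.000535), from 84.4 to 90.3 CPM in drug-free libraries to 59.1, 50.6 and 44.7 at 16x, and it was also lower at 16x than at 1x by a log2 change of -0.56 (adjusted p = 0.0129). Asl, of arginine synthesis, rose by 0.37 ± 0.07, and Got1, the cytosolic aspartate aminotransferase, by 0.31 ± 0.04.

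Of 12 other amino acid transporters 9 were tested, and 1 rose and 1 fell at 16x, with a median of -0.05. Slc6a9, a glycine carrier, rose by 0.61 ± 0.08 (adjusted p = 0.00135), from 33.7 to 39.4 CPM in drug-free libraries to 48.8 to 60.0 at 16x, and Slc43a1 fell by 0.30 ± 0.06. Of the 10 other cytosolic synthetase genes Hars, on chromosome 18, and Vars rose, by 0.32 and 0.11. Of 17 mitochondrial synthetase genes 1, Fars2, rose at 16x, by 0.24 ± 0.06. Lars2 stood at 4395 CPM in dasatinib 1x B and at 1082 to 1295 in the other 9 libraries.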

How the data were processed

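The starting point was 1 deposited table of raw read counts for 10 RNA sequencing libraries, with genes in rows. The tools, named in the submitters' processing notes without order, were CASAVA 1.7.0, Trimmomatic 0.33, TopHat2 2.0.12, BWA 0.7.10, SAMtools, HTSeq 0.6.1 and DESeq, with mm9. Whether strand was used in counting is not given in the sources used here. Reads of overlapping or antisense genes therefore cannot be told apart. For close paralogs, the handling of shared reads is not described here.

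Counts were scaled by TMM and tested with edgeR 4.0.16 (R 4.3.3), by its quasi-likelihood test in robust form, after filterByExpr at a minimum count of 10, with Benjamini-Hochberg adjustment at 0.05 over all genes tested. Comparisons with the drug-free class used a fit of 3 classes (7 residual degrees of freedom), and those with single DMSO libraries a fit of 5 groups (5 degrees of freedom). CPM used the TMM-effective library sizes. The procedure was tested on simulated data.

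The members and lists were chosen with earlier results of these data known. Called members were named with at most 8 changes in each direction. Library values are given for the called members that lead each role, at most 3, and for Atf4, Atf5, Ddit3, Phgdh and Asns, and further members were added after their values were seen. In other lists at most 3 called genes were to be named. Promoter windows came from RefSeq on GRCm38.p6 and were matched by symbol for 30 of 37 members, while the counts were made on mm9. Alternatives were DESeq2 1.42.0, limma-voom (limma 3.58.1), RLE size factors, all genes unfiltered, other references and sample sets, a replicate block, members without chromosomes 5 and 18, and leaving out each library. Some genes of the marker and one-carbon lists, and summaries that include them, are not reported here.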

Additional observations from a re-analysis of the deposited data

How the results depend on the processing

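RLE scaling changed none of the 8 counts of called members, and no named call reversed its direction. For dasatinib 1x against drug-free libraries (2 members), the count was 1 without a filter, 11 with DESeq2, 4 with only the libraries compared, 13 with the parental and 15 with the DMSO libraries as reference, 11 in the fit of 5 groups, and 0 to 6 when 1 library was left out (0 without dasatinib 1x A, B or C, 1 when DMSO 1x was out, 4 when DMSO 16x was out, and 6 when dasatinib 16x A was out). For dasatinib 16x against drug-free (17 members), it was 11 with only the libraries compared, 26 with the parental libraries alone, 27 in the fit of 5 groups, and 11 (without dasatinib 16x A) to 25 (without DMSO 16x) with 1 library left out. For 16x against 1x (0 members), it was 3 with DESeq2, 5 with only the libraries compared, 7 in the fit of 5 groups, and 0 to 4 with 1 library left out (4 when DMSO 16x was out, 1 and 2 when dasatinib 16x A and B were). Against matched DMSO, the 1x count of 6 became 3 without the members on chromosomes 5 and 18 and 4 to 13 with 1 library left out, and the 16x count of 13 became 9 and 12 to 18. DMSO 1x against parental (3 members) gave 5 with DESeq2 and 1 to 7 with 1 library left out (1 without parental A, parental B, dasatinib 1x A or 1x C, 7 without dasatinib 16x A or B), and DMSO 16x (17 members) gave 13 to 22. The interaction (0 members) gave 1 without a filter, 2 with DESeq2, and 0 to 5 with 1 library left out (3, 5 and 1 without dasatinib 16x A, B and C). The single DMSO library of a comparison cannot be left out of it. The causes of these shifts were not tested. The share of all genes called under each alternative, the replicate block included, is not given here, so a larger count is not stronger evidence on the members.

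With the replicate letter as a replicate block over the 8 lettered libraries, 14 members were called at 1x, 22 at 16x (13 of the 17 among them, without Trib3, Slc7a3, Slc38a2 and Cth, the last at an adjusted p of 0.0733) and 7 from 1x to 16x. Same-lettered libraries correlated at 0.065, 0.027 and 0.052, so the letters were not treated as pairs; each library did correlate best with its own letter, a hint from the data and not the design. Depth limits Cebpb, Stc2 and Slc7a11, with 1 to 76 counts a library.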
